A study of Ovis aries with 7 samples.

Results

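The genes described here encode subunits of voltage-gated calcium channels. Of the 26479 features counted in the striatal nuclei, 26 carried a symbol starting with CACN, and 9 of these were followed: CACNA1A, CACNA1B, CACNA1C, CACNA1D, CACNA1E, CACNA2D1, CACNA2D3, CACNB2 and CACNB4. They were chosen by symbol with earlier results of these data known, and each symbol matched 1 feature. All 9 were counted in every cell class, with 86537 (CACNA1C) to 330667 (CACNA2D3) unique molecular identifiers (UMIs) in the nuclei kept. The other 17 CACN genes held 27 to 23534 UMIs each, fewer than any of the 9. Gene lengths of the genome build used for counting were not at hand, so that each gene was compared with itself across classes and groups, and levels were not compared between genes.

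A voltage-gated calcium channel opens when the membrane is depolarised and lets calcium into the cell. Its pore is formed by an α1 subunit, which sets the channel type. CACNA1A encodes the P/Q-type pore and CACNA1B the N-type pore, which drive transmitter release at nerve terminals. CACNA1C and CACNA1D encode L-type pores, which couple depolarisation to gene expression and, for CACNA1D, to pacemaking, and CACNA1E encodes the R-type pore. CACNA2D1 and CACNA2D3 encode α2δ subunits, and CACNB2 and CACNB4 cytoplasmic β subunits, and both kinds of auxiliary subunit promote the delivery of channels to the membrane. In the striatum these channels shape the firing and the synapses of medium spiny neurons (MSNs), the main projection neurons, and the pacemaking of cholinergic interneurons.

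Nuclei came from frozen anterior striatum of sheep aged 5 years. OVT73 sheep carry a transgene with the full-length human huntingtin cDNA and an expanded polyglutamine tract, driven by a short upstream segment of the human gene. They belong to 1 transgenic line, described as free of striatal cell loss. Control sheep were wild-type and matched in age. There were 3 OVT73 and 4 control libraries. Each OVT73 library and control libraries 3 and 4 pooled nuclei of a pair of sheep, and control libraries 1 and 2 held a single sheep each. The sheep of a pool were not separated here, so that a library was 1 replicate and 3 libraries were compared with 4.

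The libraries held 3277 to 8815 barcodes and 20887378 to 70473426 UMIs, and OVT73 library 1 was the largest. After limits on genes and mitochondrial UMIs and removal of doublets, 32599 nuclei were kept. Their median per library was 1847 to 2545.5 UMIs, and the 3 OVT73 libraries had the higher medians. Of 35113 distinct barcode sequences, 159 occurred in 2 or more libraries. Clustering left out all 26 CACN genes, so that no member defined a class, and 29022 nuclei (89.0%) fell into 11 classes named from markers. All 9 oligodendrocyte, 11 astrocyte and 10 microglia markers in the files were highest in their own class, as were 3 of 4 D1 and 4 of 6 D2 markers. So were 3 of 5 eccentric MSN, 5 of 6 PV/Th, 4 of 5 SST/NPY and 5 of 6 cholinergic interneuron markers. For neuroblasts it was 5 of 6 and for oligodendrocyte precursor cells 6 of 8. The clusters were named from these same marker lists, so that the counts describe the classes and do not test their names. DRD1, which defines D1 neurons, was not among the symbols of the files, and the D1 class rested on genes such as TAC1, at 230.1 CPM (the summed UMIs of a class in a library, scaled to the same fixed total) in the D1 class and 12.2 in the D2 class. Another 86 nuclei, led by the vascular gene FLT1, were left unnamed, as were 3491 further nuclei. Nuclei of the named neuron classes were deeper than those of glia, with a median of 22492 UMIs in D1 MSN-like and 1406 in microglia-like nuclei. This depth was partly set by the naming, as a cluster with neuron markers needed a median above 5000 UMIs to be named. A cluster of 906 nuclei (doublets included) with raised MSN markers and a median of 1237.5 UMIs was left unnamed by this rule.

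Each of the 9 genes had its highest mean in a class of neurons, but the class differed from gene to gene. The 9 were the CACN genes with the most UMIs, and nuclei of the named neuron classes were deeper than those of glia. A peak in neurons may therefore follow in part from the choice of genes. Levels are given as CPM of the UMIs summed over the nuclei of a class in a library, as mean ± SD over 7 libraries. Of the 90 pairs of neighbouring classes in the 9 orders from highest to lowest, 26 had mean ± SD intervals that stood apart. The intervals of the other neighbours overlapped. They leave out that the classes came from the same libraries, so that an overlap does not mean that classes were alike within libraries. These levels are a description with no test.

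**Figure D1:**
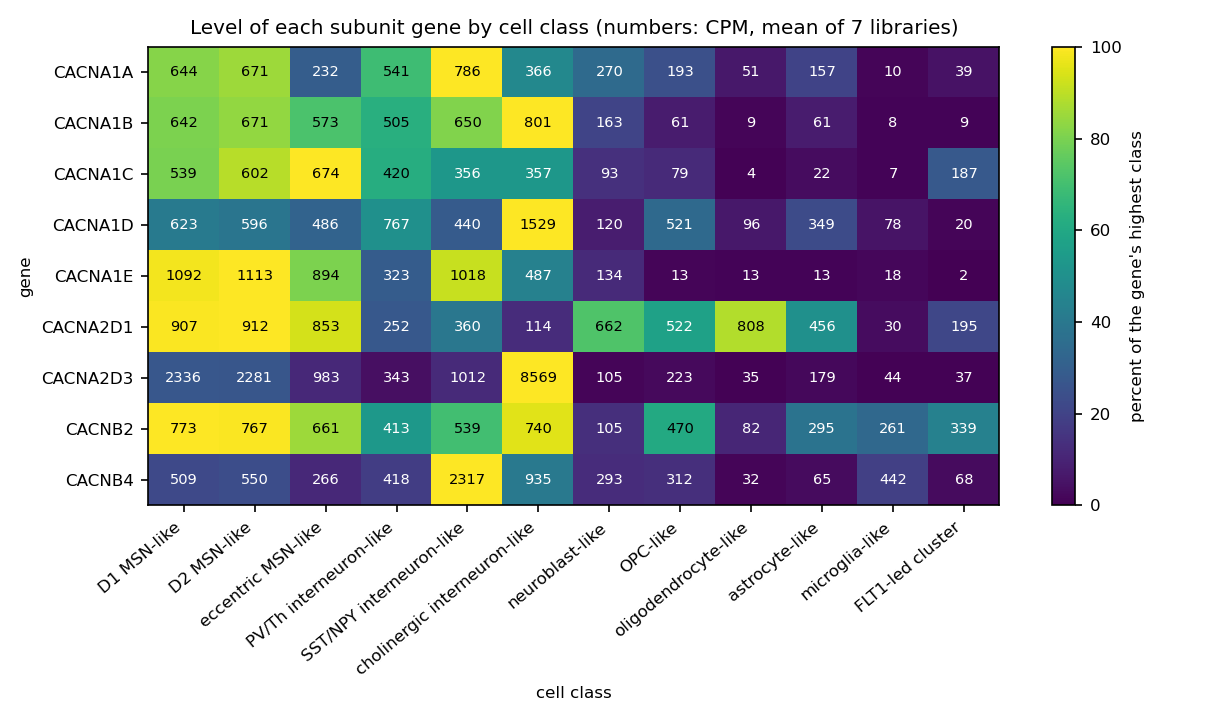
Heat map of the level of the 9 genes (rows) in 11 named classes and the FLT1-led cluster (columns). Numbers are mean CPM over 7 libraries and the colour is the percent of that gene's highest class, so that colours are read along a row. CACNA2D3 peaked at 8569 CPM in cholinergic interneuron-like nuclei, and CACNB4 at 2317 CPM in SST/NPY interneuron-like nuclei.

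Among the pore-forming genes, CACNA1A (P/Q-type) stood at 644 ± 92.2 CPM in the D1 class and 671 ± 91.9 CPM in the D2 class of MSN-like nuclei (SD, n = 7). It was highest in SST/NPY interneuron-like nuclei, at 786 ± 92.5 CPM. This interval overlapped with those of both MSN-like classes, though the level was above D1 in 6 of 7 libraries. In eccentric MSN-like nuclei, another kind of projection neuron, it was 232 ± 71.8 CPM, which overlapped with the 270.2 ± 86.7 CPM of neuroblast-like nuclei. CACNA1B (N-type) varied less among neurons, from 505 ± 41.0 CPM in PV/Th interneuron-like to 801 ± 209.8 CPM in cholinergic interneuron-like nuclei. Its next class down was neuroblast-like, at 163 ± 29.8 CPM, and that step was larger than the spread.

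The L-type genes differed from each other. CACNA1C was highest in eccentric MSN-like nuclei, at 674 ± 112.0 CPM, and was 3.53 ± 2.15 CPM in oligodendrocyte-like nuclei. It was also counted in the FLT1-led cluster, at 187 ± 178.6 CPM, where the libraries spread too widely to place it. CACNA1D was highest in cholinergic interneuron-like nuclei, at 1529 ± 678 CPM, followed by 767 ± 35.7 CPM in PV/Th interneuron-like nuclei. Outside neurons it was 521 ± 45.4 CPM in oligodendrocyte precursor cell (OPC)-like and 349 ± 51.6 CPM in astrocyte-like nuclei. CACNA1E (R-type) was 1092 ± 135.9 CPM in the D1 class, 1113 ± 118.0 CPM in the D2 class and 1018 ± 299.8 CPM in SST/NPY interneuron-like nuclei. Its means in the OPC-like and glial classes lay between 12.8 and 18.1 CPM.

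The α2δ genes had unlike patterns. CACNA2D1 was 907 ± 105.7 CPM in D1 MSN-like nuclei and nearly as high in oligodendrocyte-like nuclei, at 808 ± 87.8 CPM, while cholinergic interneuron-like nuclei had 114 ± 48.5 CPM. CACNA2D3 was 2336 ± 132.4 CPM in the D1 class, 2281 ± 109.3 CPM in the D2 class and 35.2 ± 18.2 CPM in oligodendrocyte-like nuclei. Its level in cholinergic interneuron-like nuclei was 8569 ± 3641 CPM, above D1 MSN-like nuclei in 6 of 7 libraries. That class held only 59 nuclei, 4 to 14 per library. Control library 2 gave the lowest value, 1963 CPM, and 11 of its 13 nuclei had under 5000 UMIs. Without it, an alternative chosen after seeing the data, CACNA2D3 was 9670 ± 2392 CPM and CACNA1D 1713 ± 517 CPM in these nuclei (n = 6).

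Of the β genes, CACNB2 ranged over neurons from 413 ± 43.2 CPM in PV/Th interneuron-like to 773 ± 85.5 CPM in D1 MSN-like nuclei. It was 470.1 ± 49.6 CPM in OPC-like, 295 ± 75.3 CPM in astrocyte-like and 261 ± 38.7 CPM in microglia-like nuclei. CACNB4 was highest in SST/NPY interneuron-like nuclei, at 2317 ± 415 CPM, above D1 MSN-like nuclei in all 7 libraries. That class held 106 nuclei. Outside neurons, CACNB4 was highest in microglia-like nuclei, at 442 ± 134.1 CPM, against 31.8 ± 11.7 CPM in oligodendrocyte-like nuclei.

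Free RNA from neurons can add UMIs to glial nuclei, so the glial levels were set beside those of 5 transcripts of MSNs that glia should lack or hold at a low level (ADCY5, PDE10A, PDE1B, PPP1R1B and RGS9). As a percent of their level in MSN-like nuclei, these stood at 1.18 to 14.8% in microglia-like and 1.94 to 18.4% in oligodendrocyte-like nuclei. CACNB4 stood at 83.4% and CACNB2 at 33.9% in microglia-like nuclei, and CACNA2D1 at 88.8% in oligodendrocyte-like nuclei, above those ranges. The other 7 members in microglia-like nuclei and the other 8 in oligodendrocyte-like nuclei lay at or below 15.7%, within or below these ranges, here called background ranges. PPP1R1B alone set the top of both, and the next transcript, RGS9, stood at 11.7% and 9.4%. CACNA1D lay above RGS9 in both classes (12.8% and 15.7%), as did CACNB2 in oligodendrocyte-like nuclei (10.7%). Whether the levels within the ranges came from free RNA was not tested. In OPC-like nuclei, where the range was 2.60 to 12.8%, CACNA1D (85.5%), CACNB2 (61.0%), CACNB4 (58.8%), CACNA2D1 (57.4%), CACNA1A (29.4%) and CACNA1C (13.9%) lay above it. In astrocyte-like nuclei, where PPP1R1B reached 40.4%, CACNA1D (57.3%) and CACNA2D1 (50.2%) lay above. CACNB2 (38.3%) lay below PPP1R1B there but above the next transcript, RGS9 (26.8%).

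The share of nuclei with a UMI was also compared at equal depth. Nuclei with at least 1000 UMIs were each thinned to 1000 UMIs, and the others were left out. CACNB4 was then found in 29.0% of 2259 microglia-like nuclei and 2.9% of 13338 oligodendrocyte-like nuclei, where it lay in the background range. Unthinned and over all 2779 and 15055 nuclei of these classes, the shares were 36.8% and 5.5%, at median depths of 1406 and 1767 UMIs. CACNA2D1 was found in 49.9% of the thinned oligodendrocyte-like nuclei and 56.4% of D1 MSN-like nuclei, against 2.3% of microglia-like nuclei.

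Within the named classes, the members varied between subclusters of neurons, here named by their leading genes. Means and SDs are over the libraries with at least 3 nuclei of the subcluster. CACNA2D3 was 132 ± 101 CPM in the 284 PV/Th interneuron-like nuclei led by NXPH1 and IL1RAPL2 and 1718 ± 413 CPM in the 59 led by CALCR and COL1A2. Among D2 MSN-like nuclei it was 1269 ± 347 CPM in the 286 led by ALK and TANC1, and 2278 to 2586 CPM in the other 3 subclusters. The ALK-led D2 nuclei also had the lowest CACNA1E of that class, at 629 ± 123.2 CPM, and the highest CACNA1C, at 847 ± 176.3 CPM. The 65 D2 nuclei led by NTS and PENK had the highest CACNA1E, at 1941 ± 349.0 CPM (n = 6 libraries). Among eccentric MSN-like nuclei, CACNA2D3 ran from 732 ± 287 CPM in those led by ALK and FOXP2 to 2147 ± 592 CPM in the 33 led by CXCL14 and RFTN1. The latter mean rests on 3 libraries.

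**Figure D2:**
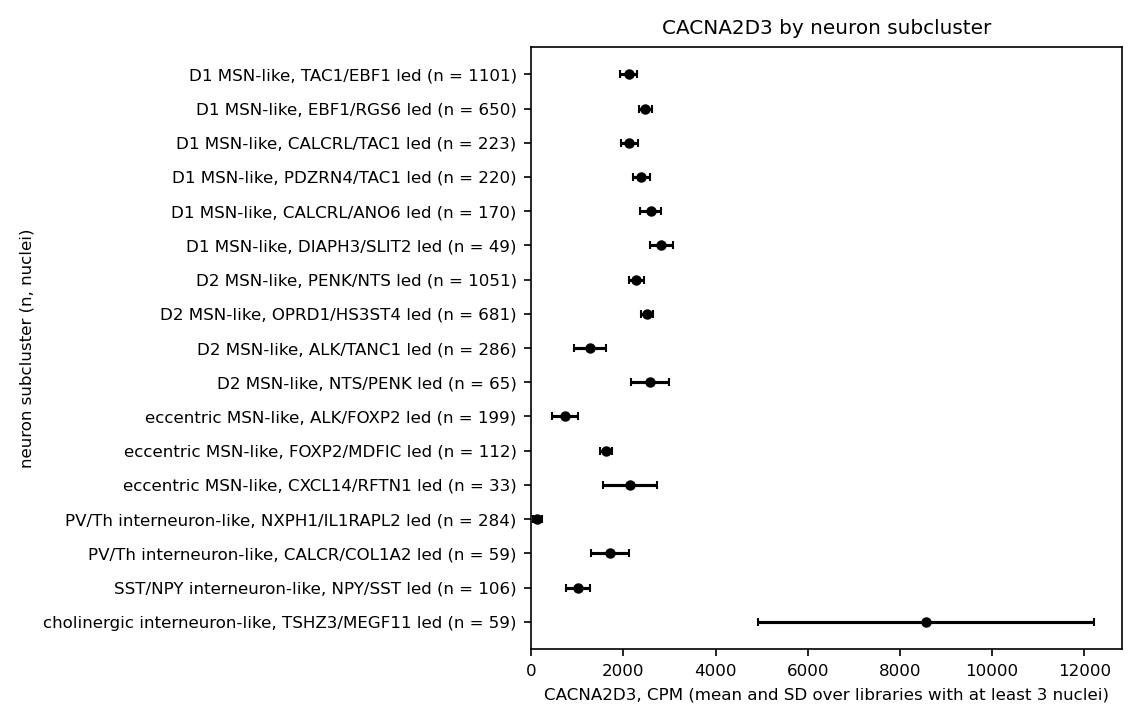
CACNA2D3 level in CPM (horizontal axis) in the named subclusters of neurons (rows, with their number of nuclei). Points are means and bars SDs over the libraries with at least 3 nuclei. The PV/Th interneuron-like subclusters lie apart, at means of 132 and 1718 CPM, and the cholinergic interneuron-like nuclei reach a mean of 8569 CPM with the widest spread.

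Classes were then compared by edgeR's quasi-likelihood test on summed UMIs, with the library as a block and Benjamini-Hochberg adjustment over all genes tested. Between D2 and D1 MSN-like nuclei, 2 of 9 members passed an adjusted p of 0.05, where 11.1% of all 12993 genes did, 5.76% higher and 5.33% lower in D2. CACNA1C was higher in D2 by 0.16 on the log2 scale (SE 0.030, adjusted p = 0.000106) and CACNB4 by 0.11 (SE 0.027, adjusted p = 0.00305), each in 7 of 7 libraries. These are folds of 1.12 and 1.08. Without the library block neither passed.

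In eccentric MSN-like nuclei all 9 members differed from D1 and D2 MSN-like nuclei, where 37.1% of all genes did, 18.6% in each direction. CACNA1A was 2.85-fold lower (log2 change −1.51, SE 0.108, adjusted p = 3.0e-08), CACNA2D3 2.43-fold lower and CACNB4 2.03-fold lower, each in 7 of 7 libraries. CACNA1C was the member that was higher, by 1.17-fold (log2 change 0.22, SE 0.048). These are calls on a mixed class. In its subclusters led by ALK and FOXP2, FOXP2 and MDFIC, and CXCL14 and RFTN1, CACNA1C was at means of 716, 541 and 863 CPM. In the same order, CACNA1E was at 814, 1202 and 466 CPM and CACNB2 at 598, 867 and 276 CPM. Without the library block 6 of 9 members passed, and the calls on CACNA1C (0.24, adjusted p = 0.137), CACNA1B (−0.21, adjusted p = 0.116) and CACNA2D1 (−0.10, adjusted p = 0.494) were lost. The call on CACNA2D1, 1.08-fold lower, was also lost without TMM scaling and without OVT73 library 1, 2 or 3 or control library 4, where its log2 change was −0.11, −0.11, −0.08 and −0.10.

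PV/Th interneuron-like nuclei had lower levels of 8 of 9 members than D1 and D2 MSN-like nuclei, where 62.5% of all genes passed, 31.1% higher and 31.4% lower. CACNA2D3 was 8.95-fold lower (log2 change −3.16, SE 0.169, adjusted p = 1.1e-09), CACNA2D1 4.61-fold lower and CACNA1E 4.40-fold lower, each in 7 of 7 libraries. The fold of CACNA2D3 covers unlike subclusters, with means of 132 CPM in the 284 nuclei led by NXPH1 and 1718 CPM in the 59 led by CALCR. CACNA1D had a log2 change of −0.02 (95% interval −0.11 to 0.08). This depended on the scaling: scaled by total UMIs alone, CACNA1D was higher by 0.34 (adjusted p = 4.5e-08), but the median of all genes was then 0.38, against 0.02 with TMM scaling. The size of the other folds also rests on the scaling. The test gave −0.62 for CACNA1A and −0.78 for CACNA1C. In CPM without TMM scaling they stood at −0.24 and −0.34 against the D1 class alone, each higher in 1 of 7 libraries.

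In the oligodendrocyte lineage, OPC-like nuclei had higher levels than oligodendrocyte-like nuclei of 7 members, and CACNA2D1 was lower, where 66.9% of all genes passed, 35% higher and 31.9% lower. The largest difference was in CACNA1C, 23.4-fold (log2 change 4.55, SE 0.237, adjusted p = 1.0e-08), followed by CACNB4, 10.4-fold. All of these but CACNA2D1 lay within or below the background range in oligodendrocyte-like nuclei, so that their folds have a low base. CACNA1B and CACNA2D3 lay within the background range in OPC-like nuclei as well, at 9.2% and 9.7% of the MSN-like level. CACNA1C lay just above it, at 13.9% against a top of 12.8%. Whether these levels came from free RNA was not tested. CACNA2D1 was 1.53-fold lower in OPC-like nuclei (log2 change −0.61, SE 0.078). CACNA1E had a log2 change of 0.10 (95% interval −0.26 to 0.46).

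**Figure D3:**
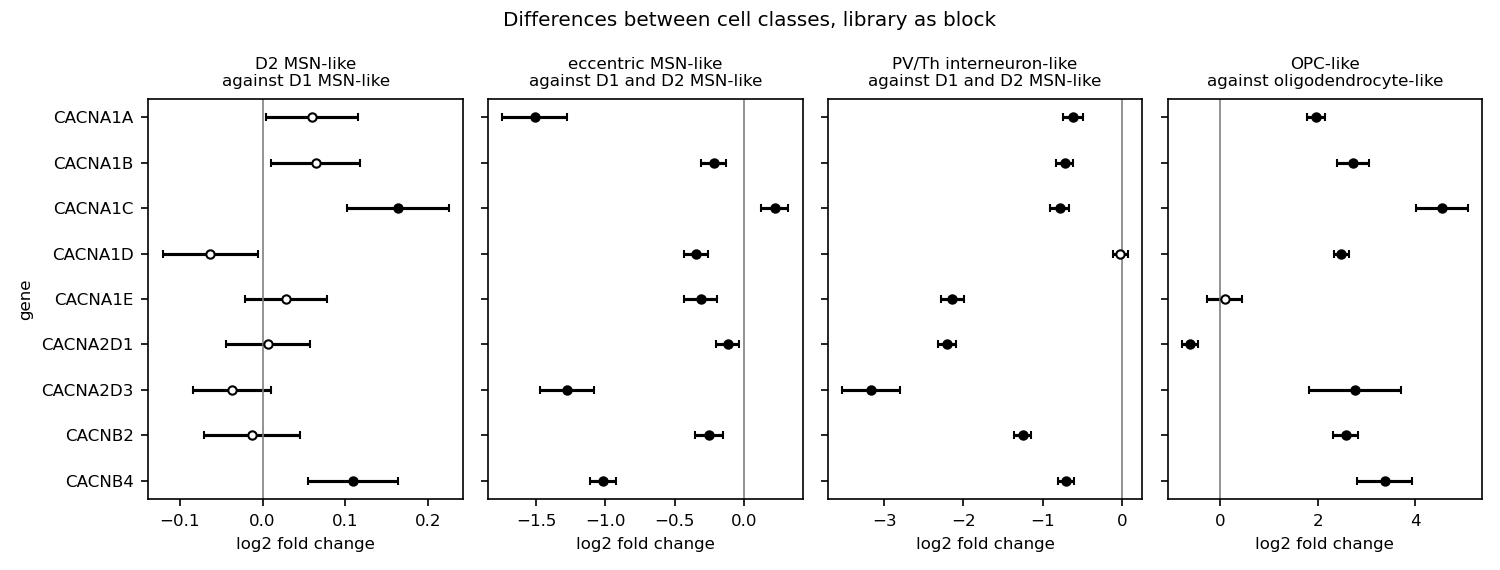
Log2 difference of each gene between classes with its 95% interval, for the 4 comparisons of classes, on a separate axis for each. Filled points passed an adjusted p of 0.05. CACNA2D3 in PV/Th interneuron-like nuclei (−3.16) and CACNA1C in OPC-like nuclei (4.55) lie farthest from 0, and all 9 genes lie near 0 between D2 and D1 MSN-like nuclei.

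The study asked how the transgene changes expression in each cell type. In D1 MSN-like nuclei no member passed an adjusted p of 0.05 by edgeR, and 0% of 12153 genes did. By DESeq2 no member passed either. The unadjusted p by edgeR was under 0.05 for 1 member. CACNA1A, scaled by edgeR's TMM factors, was 587, 567 and 565 CPM in OVT73 libraries 1 to 3 and 661, 693, 676 and 754 CPM in control libraries 1 to 4. All OVT73 libraries lay below all control libraries. The log2 fold change was −0.28 (SE 0.097, 95% interval −0.50 to −0.07), with an adjusted p of 0.951 and an exact two-sided permutation p of 0.0286, the smallest that 3 against 4 libraries allow. The permutation p was not adjusted for the number of tests, and it takes pooled and single-sheep libraries as alike. Leaving out each library gave −0.31 to −0.25. CACNB4 was 549, 613 and 511 CPM in OVT73 and 466, 462, 483 and 498 CPM in control libraries. Here all OVT73 libraries lay above the controls, with a log2 fold change of 0.23 (SE 0.102, adjusted p = 0.951, exact permutation p = 0.0286). These 2 of 9 members without overlap compare with 5.23% of all genes in this class.

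The other 7 members overlapped between the groups in D1 MSN-like nuclei. CACNA2D1 was 1111, 922 and 993 CPM in OVT73 and 813, 1011, 711 and 831 CPM in control libraries, a log2 fold change of 0.26 (SE 0.132). CACNB2 was 986, 791 and 734 CPM in OVT73 and 724, 863, 651 and 700.2 CPM in control libraries, a change of 0.19 (SE 0.137). CACNA1B, CACNA1C, CACNA1D, CACNA1E and CACNA2D3 had changes between −0.04 and 0.09, with 95% intervals reaching from −0.35 to 0.50 at most.

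In D2 MSN-like nuclei again no member and 0% of 11739 genes passed by edgeR, and 0 members had an unadjusted p under 0.05 by edgeR. No member passed by DESeq2. CACNA1A was 621, 597 and 639.7 CPM in OVT73 and 646, 667, 753 and 769 CPM in control libraries. The groups did not overlap, with a gap smaller than in D1, a log2 fold change of −0.19 (SE 0.101, adjusted p = 0.903) and an exact permutation p of 0.0857. It was the only one of 9 members without overlap, where 6% of all genes had none. CACNB4 was 574, 653 and 565 CPM in OVT73 and 493, 491, 508 and 589.7 CPM in control libraries, a change of 0.20 (SE 0.106), and control library 4 lay among the OVT73 libraries. The remaining 7 members had changes between 0.01 and 0.20.

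**Figure D4:**
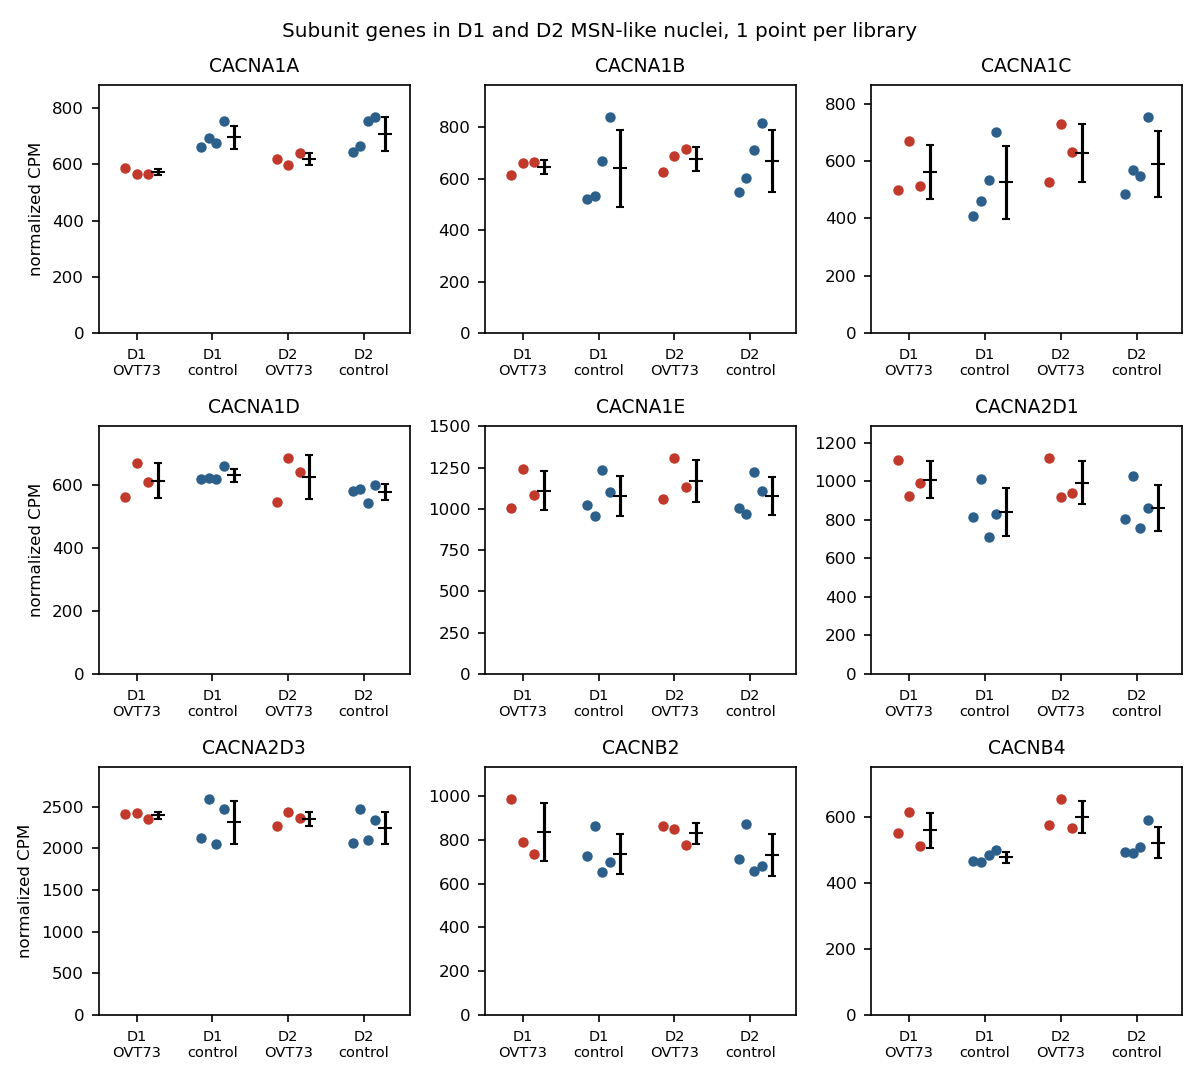
TMM-scaled CPM (vertical axes) of the 9 genes in D1 and D2 MSN-like nuclei, with 1 point per library in red for OVT73 and blue for control, and the mean ± SD of each group as black bars. For CACNA1A the OVT73 points lie below the control points in both classes, from 565 to 587 CPM against 661 to 754 CPM in D1, and the groups overlap for most other genes.

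CACNA1A was also read within the 4 largest subclusters of MSN-like nuclei, an alternative chosen after seeing the data and after the gene stood apart in both classes, so that the values are a description. In TMM-scaled CPM it was 489.7 to 553 in OVT73 and 584 to 691 in control libraries in the D1 nuclei led by TAC1 and EBF1, and 549 to 611 and 666 to 842 in those led by EBF1 and RGS6. In the D2 nuclei led by PENK and NTS the ranges were 579 to 594 and 621 to 711 CPM, and in those led by OPRD1 and HS3ST4 they were 641 to 728 and 709 to 909 CPM. The groups did not overlap in 3 of the 4 and overlapped in the nuclei led by OPRD1 and HS3ST4, where without TMM scaling they stood apart at 609.6 to 707 and 737 to 929.9 CPM. CACNB4 stood apart in the nuclei led by TAC1 and EBF1, at 503 to 624 against 467 to 493 CPM, and in those led by PENK and NTS, at 543 to 665 against 507 to 533 CPM. Without TMM scaling it did so in the former alone, where the nearest libraries were at 503.6 and 503.3 CPM. The subclusters are parts of the same classes and come from the same libraries. Groups that stand apart in them therefore do not repeat the comparison independently, and the shares over all genes are of genes not picked in this way. Over all genes, groups without overlap in either direction were found for 4.47% in the nuclei led by TAC1 and EBF1, 4.66% in those led by EBF1 and RGS6, 5.48% in those led by PENK and NTS and 4.65% in those led by OPRD1 and HS3ST4. Depth moved with the groups: the median was 19601 to 32470 UMIs per D1 MSN-like nucleus in OVT73 and 15206 to 24134 in control libraries, and its part in these differences was not tested. Without TMM scaling the median of all genes shifted to −0.12 in D1 and −0.13 in D2, and the changes of CACNA1B, CACNA1C and CACNA2D3 in both classes and of CACNA1E in D1 turned negative.

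Whether the D2 to D1 difference itself differed between OVT73 and control was tested as an interaction. No member passed by edgeR, where 0.0154% of all genes did. The largest value was that of CACNA1D, 0.16 (SE 0.052, adjusted p = 0.940). Its D2 minus D1 difference in log2 CPM was −0.01, 0.01 and 0.05 in OVT73 and −0.08, −0.06, −0.21 and −0.14 in control libraries.

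In the other 7 tested classes no member passed by edgeR or DESeq2, and 0% of all genes passed by edgeR in each. Over all 9 classes, 76 pairs of member and class were tested. Of these, 5 had an unadjusted p under 0.05 by edgeR, and 4 (5.26%) had groups without overlap. Over all genes tested, an unadjusted p under 0.05 was found for 4.04% in D1 MSN-like, 4.57% in D2 MSN-like, 7.18% in eccentric MSN-like, 4.26% in PV/Th interneuron-like, 3.56% in neuroblast-like, 6.49% in OPC-like, 5.31% in oligodendrocyte-like, 5.17% in astrocyte-like and 4.4% in microglia-like nuclei. Groups without overlap were found for 7.73% in eccentric MSN-like, 5.27% in PV/Th interneuron-like, 5.09% in neuroblast-like, 7.44% in OPC-like, 6.63% in oligodendrocyte-like and 5.89% in astrocyte-like nuclei, in which no member had them. CACNA1C and CACNA1E in astrocyte-like and CACNA1A, CACNA1B and CACNA1C in microglia-like nuclei had too few UMIs to be tested. SST/NPY and cholinergic interneuron-like nuclei were too few in some libraries.

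The largest difference for its error was in microglia-like nuclei. CACNB4 was 306, 419 and 279 CPM in OVT73 and 427, 592, 586 and 619.8 CPM in control libraries, and every OVT73 library lay below every control library. Groups without overlap in either direction were found for 5.61% of all genes there. OVT73 library 2 and control library 1 lay close together. The log2 fold change was −0.74 (SE 0.163, 95% interval −1.09 to −0.39), with an adjusted p of 0.481 by edgeR, 0.146 by DESeq2, and an exact permutation p of 0.0571. When all genes with at least 1 UMI were tested, edgeR gave −0.68 with an adjusted p of 0.00785, and 42 genes passed instead of 0. Leaving out each library gave −0.93 to −0.63, with adjusted p from 0.119 to 0.9995.

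Another 3 pairs of member and class had an unadjusted p under 0.05 with overlapping groups. CACNA1D in neuroblast-like nuclei was 129, 78.0 and 61.6 CPM in OVT73 and 121, 304, 112 and 142 CPM in control libraries, a log2 fold change of −0.79 (SE 0.366). Control library 2, with 44 of these nuclei, was the highest. CACNA1D stood lower in OVT73 microglia-like nuclei by a log2 value of −0.51 (SE 0.238), on levels in its background range. CACNA2D1 in OPC-like nuclei was 703, 517 and 631 CPM in OVT73 and 545, 500.3, 350.2 and 473 CPM in control libraries, a change of 0.40 (SE 0.146, adjusted p = 0.671). In eccentric MSN-like and PV/Th interneuron-like nuclei the 9 changes lay between −0.25 and 0.20. In oligodendrocyte-like nuclei they lay between −0.54 and 0.74, with wider errors at low counts, and in astrocyte-like nuclei between −0.61 and 0.07.

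**Figure D5:**
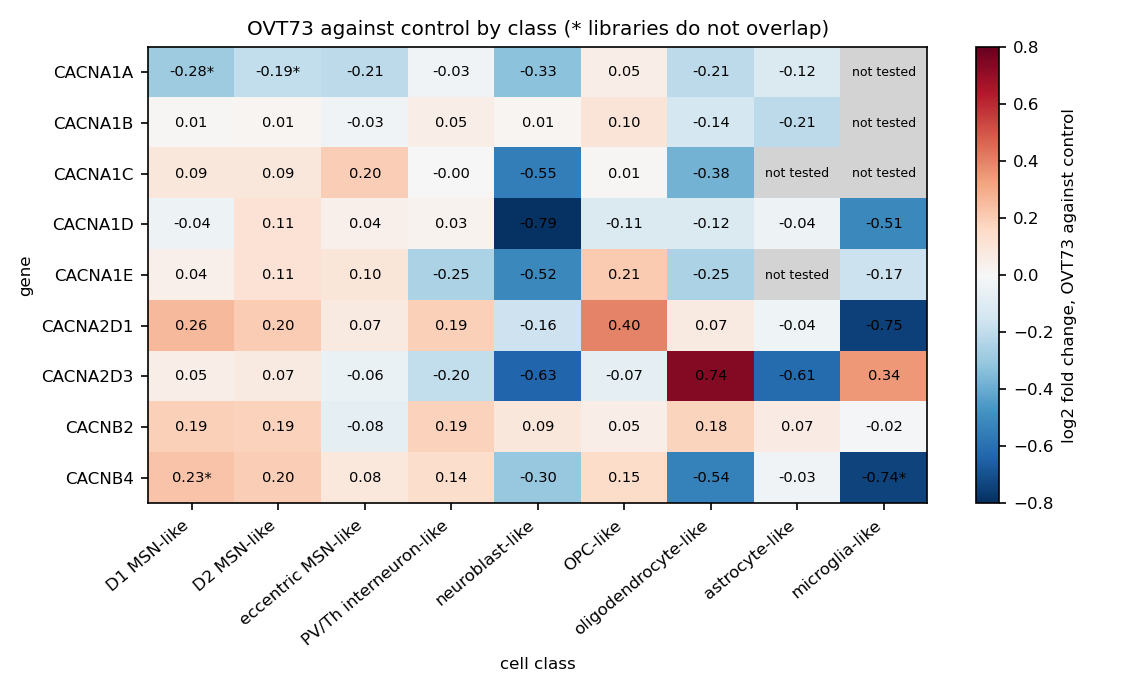
Heat map of the log2 fold change (number and colour), OVT73 against control, of the 9 genes (rows) in 9 tested classes (columns), with grey where a gene was not tested. The 4 starred values, such as −0.28 for CACNA1A in D1 and −0.74 for CACNB4 in microglia-like nuclei, are those whose libraries did not overlap, and no value passed an adjusted p of 0.05.

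Across the 9 tested classes, the genes most like the members by Pearson correlation of log2 CPM among 11031 genes were CCKBR for CACNA1E (r = 0.993), TTLL1 for CACNA2D3 (0.996), TMEM63C for CACNA1B (0.990), REPS2 for CACNA1C (0.990) and CHDH for CACNA1D (0.988). For CACNB4 they were RAPGEF4 (0.971) and FGF14 (0.966), and for CACNA2D1 MYBL2 (0.983) and ITIH2 (0.958). For CACNA1A (0.971) and CACNB2 (0.964) it was a feature without a symbol, followed by KLHL42 (0.970) and NOCT (0.951). Among members, CACNA1B and CACNA1C were the most alike (r = 0.981) and CACNA2D1 and CACNB4 the least (r = −0.216). All these values rest on 9 points that share their libraries, and are a description only.

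Other CACN genes, listed by symbol rather than by function, and genes of calcium handling were read from 3 lists. Of 17 other CACN genes, 13 could be tested in the D1 and 12 in the D2 class, and none passed by edgeR or had an unadjusted p under 0.05 in either. Their log2 fold changes had a median of −0.06 in the D1 class, beside −0.02 over all genes. By level, CACNA2D2 led in cholinergic interneuron-like nuclei (292 CPM), CACNG3 in PV/Th interneuron-like (205 CPM), CACNG2 in neuroblast-like (195 CPM) and CACNG4 in OPC-like nuclei (58.5 CPM). Of 24 genes of calcium release and extrusion, 20 were tested in each MSN-like class and none passed. By edgeR, 2 had an unadjusted p under 0.05 in each class, where 4.04% of all genes did in D1 and 4.57% in D2. Groups without overlap were found for 2 of the 20 in D1 and 1 in D2, beside 5.23% and 6% of all genes. SLC8A1, a sodium-calcium exchanger, was 1307, 1448 and 1260.3 CPM in OVT73 and 1059, 1043, 1081 and 1133 CPM in control libraries in D1, all OVT73 above all controls, with a log2 fold change of 0.31 (SE 0.099, adjusted p = 0.951). In D2 its change was 0.42 (SE 0.115, adjusted p = 0.903), again without overlap. RYR1, a calcium release channel, had a log2 fold change of −0.47 (SE 0.186) in D1, with all OVT73 libraries below all controls. STIM2 had a change of 0.23 (SE 0.102) in D2, with overlapping groups. Of 25 channel partners and calcium effectors in the files, 21 were tested in D1 and 20 in D2 and none passed. CAMK4, a calcium-dependent kinase, had log2 fold changes of 0.20 (SE 0.111) in D1 and 0.21 (SE 0.093) in D2. In D2 all its OVT73 libraries lay above the controls, and it was the only gene of its list there without overlap.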

How the data were processed

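Per the labels and the study's methods, nuclei were run on a droplet 3′ kit, and the authors deposited 1 matrix per library of UMI counts per feature and barcode, raw and not normalised, made with Cell Ranger 7.0.0 and STAR 2.7.2a on the sheep Oar_rambouillet_v1.0 genome. The study does not state in words whether intronic reads were counted. In its statistics for every library, more reads mapped to the transcriptome than to exonic regions, and most reads mapped to intronic regions. Nuclei with 200 to 7500 genes and at most 5% mitochondrial UMIs were kept, and the 4% with the highest doublet scores in each library were removed. Principal components were corrected between libraries and clustered, with CACN genes left out, and clusters were named from marker lists. Neuron clusters also needed a median above 5000 UMIs. UMIs were summed per library and class. Classes with at least 10 nuclei in every library were tested with edgeR 4.0.16 (quasi-likelihood, filterByExpr, TMM, R 4.3.3), with DESeq2 1.42.0 as an alternative. This test over libraries takes the place of the authors' test over nuclei. Single values used an exact permutation test over 35 splits. The tests were checked on simulated data. Named were all 9 members by class and in MSN-like nuclei, elsewhere those without overlap or with an unadjusted p under 0.05, per member up to 2 most alike genes, and per list up to 3 genes with the smallest p. The members and lists were chosen with earlier results of these data known. Libraries came from separate sheep or pools, and the replicate numbers follow no label.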

Additional observations from a re-analysis of the deposited data

Results flagged for a closer look

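In 9 of 76 control groups, 1 of the 4 libraries stood farther from the rest than Dixon's 95% critical value allows, where chance gives about 1 in 20. That rate takes the libraries as alike and the groups as independent. Control libraries 1 and 2 held a single sheep each while 3 and 4 were pools, and all groups share these libraries. The 9 of 76 are therefore not read as an excess. Values are TMM-scaled CPM. Control library 2 was the highest in 4 of these groups: CACNA2D1 (1028, others 782 to 813) and CACNA2D3 (1478, others 825 to 929) in eccentric MSN-like nuclei, CACNA1E in PV/Th interneuron-like nuclei (440.5, others 325 to 344) and CACNA1D in neuroblast-like nuclei (304, others 112 to 142). Control library 4 was the highest for CACNA1D in D1 MSN-like nuclei (661, others 620.1 to 624), CACNB4 in D2 MSN-like nuclei (589.7, others 491 to 508) and CACNB4 in astrocyte-like nuclei (132, others 38.9 to 54.3). In oligodendrocyte-like nuclei, control library 3 was the lowest for CACNA2D1 (599.5, others 847 to 873) and control library 1 for CACNB4 (17.3, others 40.3 to 44.9). The cause was not tested.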

How the results depend on the processing

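No paired analysis was possible because the replicate numbers follow no label and pair no samples. Under alternatives, 402 values of OVT73 against control were compared, which were the changes of named members and the median change of all genes in each class. Of these, 378 stayed the same, which meant direction and side of the threshold for a member and a small shift for a median. The number of members passing moved by more than 1.5 times in 2 cases, to 1 in microglia-like nuclei when genes with 1 UMI or more were tested, and to 0 for D2 against D1 without the library block. Of 9 members passing in eccentric MSN-like nuclei, 6 passed without the block, 8 without TMM scaling and 8 to 9 on leaving out each library, and in PV/Th interneuron-like nuclei 9 instead of 8 passed without TMM scaling. The number of all genes passing for D2 against D1 was 1440, 945 by DESeq2 and 161 without the block. Where 0 genes passed for OVT73, the wider filter gave 1 in D2 MSN-like, 49 in eccentric MSN-like, 17 in PV/Th interneuron-like, 2 in neuroblast-like, 45 in OPC-like, 1 in oligodendrocyte-like, 17 in astrocyte-like and 42 in microglia-like nuclei, and DESeq2 gave 1 in D1, 5 in D2 and 1 in eccentric MSN-like, 9 in OPC-like, 5 in oligodendrocyte-like and 1 in astrocyte-like nuclei. Scaling by total UMIs gave 2 in OPC-like nuclei, and clusters without correction 1 each in eccentric MSN-like and OPC-like nuclei. For the interaction it was 2, then 0 by DESeq2 and 17 under the wider filter. Leaving out each library gave 0 to 3 genes in eccentric MSN-like, 0 to 8 in PV/Th interneuron-like, 0 to 2 in OPC-like, 0 to 1 in oligodendrocyte-like and 0 to 1 in microglia-like nuclei, 0 in the other 4 classes, and 0 to 18 for the interaction.

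Signs turned as follows, on values near 0 apart from CACNA1D in PV/Th interneuron-like nuclei without TMM scaling. For OVT73 without TMM scaling, CACNA1B was −0.086, CACNA1C −0.0085, CACNA1E −0.063 and CACNA2D3 −0.042 in D1, and CACNA1B −0.093, CACNA1C −0.015 and CACNA2D3 −0.035 in D2. With equal numbers of nuclei CACNA1B was −0.028 in D1 and −0.0027 in D2. For PV/Th against MSN-like nuclei CACNA1D was 0.34 without TMM scaling, where it passed by edgeR (adjusted p = 4.5e-08). It was 0.012 by DESeq2, 0.00043 on uncorrected clusters and 0.031 without the block. CACNA1E in OPC-like nuclei was −0.025 under the wider filter, and CACNB2 for D2 against D1 was 0.0049 on uncorrected clusters. For the interaction, CACNA1B was −0.016 without TMM scaling, −0.0023 by DESeq2, −0.0024 under the wider filter and −0.016 on uncorrected clusters, CACNB2 was −0.0044 without TMM scaling and −0.0063 on uncorrected clusters, and there CACNA1C was 0.0019 and CACNB4 0.011. The cause was not tested.

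Leaving out each library, the sign turned for OVT73 in D1 for CACNA1B (−0.078 to 0.16), CACNA1C (−0.056 to 0.25), CACNA1D (−0.11 to 0.013) and CACNA1E (−0.048 to 0.11), and in D2 for CACNA1B (−0.075 to 0.12) and CACNA1C (−0.027 to 0.23). It also turned for CACNA1D in PV/Th (−0.033 to 0.0067), CACNA1E in OPC (−0.085 to 0.16), and CACNA2D1 (−0.0029 to 0.021) and CACNB2 (−0.037 to 0.017) for D2 against D1. For the interaction the ranges were −0.030 to 0.041 for CACNA1B, −0.064 to 0.053 for CACNA1C, −0.034 to 0.12 for CACNB2 and −0.038 to 0.037 for CACNB4.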
